A study of Xenopus laevis with 51 samples.

Results

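The protein arginine methyltransferases (PRMTs) were described in RNA-seq libraries of Xenopus laevis eye and hindbrain. Members were all entries of the expression files whose gene symbol was PRMT1, PRMT2, PRMT3, PRMT5, PRMT6, PRMT7 or CARM1. These 7 symbols had 11 of the 24381 entries of each library. PRMT1 had an L and an S homeolog entry, by the study's own assignment of the 2 gene models to the L and S subgenomes. PRMT5 had 2 entries, CARM1 had 3, and the other genes had 1 each. The entries of PRMT5 and CARM1 are named by the end of their gene model (PRMT5 X000367 and X049717, and CARM1 S35720565, X011846 and XeXenL6RMv10002312m), since their subgenome was not assigned here.

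PRMTs transfer methyl groups from S-adenosylmethionine to arginine residues of histones and of RNA-binding proteins. Type I enzymes (PRMT1, PRMT2, PRMT3, CARM1 and PRMT6) make asymmetric dimethylarginine, with PRMT1 as the main one in most vertebrate cells. Type II enzymes, chiefly PRMT5 with its partner WDR77, make symmetric dimethylarginine, and PRMT7 makes monomethylarginine. Arginine methylation alters chromatin marks and the transport, splicing and translation of mRNA, processes that growing axons draw on. The spinal axons of Xenopus regrow in tadpoles but not after metamorphosis, whereas optic axons regrow throughout life.

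The study had 51 libraries in 17 groups of 3, each library from 5 pooled hindbrains or 6 pooled eyes of albino animals whose sex was not determined. Stage 53 tadpoles had a complete spinal cord transection (SCI), and their hindbrains were taken 3 days, 7 days and 3 weeks later, beside unoperated tadpoles of the same age at each time. The labels of the unoperated tadpoles used as 3 day controls give no time, and 3 days follows from the study's design of age-matched controls. Juvenile frogs, 1 to 3 months after metamorphosis, had the same SCI with hindbrains taken at the same times, beside a single group of 3 unoperated frog libraries that all 3 comparisons share. Other juvenile frogs had an orbital optic nerve crush (ONC) on one side. Their operated eyes and the unoperated contralateral eyes were taken after 3 days, after 11 days and after 3 weeks, beside eyes of surgically naive frogs. The whole hindbrain or eye was homogenised, so that fewer cells of a type cannot be told apart from less RNA per cell. By the study's methods both eyes of an operated frog were used and the tadpole SCI and control pools were paired, but no label says which pools belong together or shared a batch. The p-values measure the spread between pools only. Values are FPKM, fragment numbers scaled to transcript length and library size, so that levels of different members can be set side by side.

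The tissues matched their labels. Entries of the lens crystallin CRYAA summed to 7738 FPKM or more in each eye library and to at most 26.9 in each hindbrain library, and the hindbrain gene HOXB3 summed to 11.7 or more in hindbrain and at most 0.479 in eye. EGR2, a rhombomere gene of the early embryo, was near 0 in both tissues. FPKM summed to 374367 to 493408 per hindbrain library and to 616382 to 1209699 per eye library. FPKM do not hold read numbers, and the FPKM worth of 1 read, relative to the median library, ran from 0.747 to 1.53 in hindbrain and from 0.804 to 1.80 in eye. The library names of all 3 frog controls, and of no other library, carry a letter R, so that whatever the letter stands for cannot be told apart from control status. A letter B marks 8 eye libraries of 3 and 11 days. Replicates were least alike among contralateral eyes of 3 days, where the lowest Pearson r of log2(FPKM + 1) was 0.947 across entries.

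All 11 entries were expressed in all 51 libraries, the lowest value being 0.881 FPKM for CARM1 XeXenL6RMv10002312m in a naive eye. PRMT1 held most of the members' summed FPKM. PRMT1.S averaged 121.3 FPKM over the hindbrain libraries and 107.6 over the eye libraries, which placed it 494th and 716th of all 24381 entries. PRMT1.L averaged 66.4 and 52.2. The next most abundant members were PRMT5 X000367 (14.01 in hindbrain and 13.7 in eye), PRMT5 X049717 (11.4 and 12.9) and PRMT3 (11.0 and 9.74), followed by CARM1 S35720565 (9.59 and 7.03), PRMT6 (6.71 and 5.56), PRMT7 (4.99 and 4.14) and PRMT2 (4.46 and 4.10). PRMT8 was not in the member list and is given below with the surrounding genes. Its mean exceeded that of PRMT5 X000367 in each group for which it is given there. These are the tadpole hindbrains of 3 days with and without SCI, the frog controls, and the frog SCI hindbrains of 3 and 7 days. The remaining CARM1 entries, X011846 and XeXenL6RMv10002312m, averaged 5.23 and 2.59 in hindbrain and 2.33 and 1.60 in eye. The 2 PRMT1 homeologs together held between 60.4% of the summed member FPKM (a frog SCI library of 3 days) and 79.6% (an unoperated tadpole library of 3 days).

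The members were compared between uninjured groups of different age and tissue, with the share of all entries called beside each count. Entries were tested where their mean was at least 0.45 FPKM in a compared group, with limma on log2(FPKM + 0.5), and called where p, adjusted by Benjamini-Hochberg over every tested entry, did not exceed 0.05. Each adjusted p below is from this test, a log2 fold change is on the log2(FPKM + 0.5) scale, and all 11 entries were tested in every comparison. A lack of overlap between groups of 3 libraries is given as a description only, since its share over all entries was not determined. Between the unoperated tadpoles of the 3 day and the 7 day time points, 10 of the 11 entries were called, 3 higher and 7 lower at 7 days, against 51% of all tested entries called, 24.9% higher and 26% lower. PRMT1.S was at 203, 228 and 207 FPKM in the 3 day controls and at 111, 107 and 113 in the 7 day controls. It fell by 0.95 on the log2 scale (SE 0.07, adjusted p = 3.1e-05). PRMT1.L, at 102, 124 and 106 and then at 63.2, 68.7 and 67.7, fell by 0.72 (SE 0.08, adjusted p = 0.000197). PRMT6, a nuclear type I enzyme, fell from 10.7 ± 0.997 to 6.00 ± 1.14 (SD, n = 3, adjusted p = 0.00135). PRMT3, which in mammals methylates the ribosomal protein RPS2, fell from 13.5 ± 1.51 to 9.93 ± 1.04, and both PRMT5 entries fell as well, by 0.48 and 0.39 on the log2 scale.

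PRMT2 went the other way. This type I enzyme, with weak activity of its own and an SH3 domain, stood at 2.93, 2.98 and 3.28 FPKM in the 3 day controls and at 5.23, 5.36 and 6.35 in the 7 day controls, a rise of 0.78 on the log2 scale (SE 0.11, adjusted p = 0.000535). The CARM1 entries, which encode the coactivator-associated methyltransferase of histone H3, were split. CARM1 S35720565 fell from 14.1 ± 0.841 to 10.6 ± 0.962, while X011846 rose from 3.81 ± 0.529 to 5.19 ± 0.160 and XeXenL6RMv10002312m from 2.42 ± 0.182 to 3.09 ± 0.187, the last with an adjusted p of 0.0498 that was above 0.05 without any one library. That last call held in 2 of the 7 other alternatives (adjusted p 0.0465 to 0.0836 over the 7). PRMT7 was the single entry not called. The 3 day controls carry no time in their labels, so that age cannot be told apart here from another difference between the control sets. From the 7 day to the 3 week controls none of the 11 entries was called, against 0.574% of all entries. Of them 2 had an unadjusted p under 0.05, as did 18.5% of all entries.

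Unoperated juvenile frogs, compared with the unoperated tadpoles of 3 weeks, had 4 entries called, all lower, against 34.6% of all entries called and 16.4% called lower. PRMT1.L was at 35.0, 41.9 and 38.0 FPKM in the frogs and at 56.7, 88.3 and 71.1 in the tadpoles, 0.88 lower on the log2 scale (SE 0.15, adjusted p = 0.00359). PRMT1.S was at 77.9, 76.4 and 75.3 against 93.5, 132 and 119, 0.57 lower on that scale (SE 0.12, adjusted p = 0.00901). PRMT5 X000367 (11.0 ± 0.599 against 14.1 ± 0.327) and PRMT7 (3.98 ± 0.553 against 5.43 ± 0.679) were the others, PRMT7 with an adjusted p of 0.0475. The PRMT7 call was lost in 4 of the 6 fits that left out a library (adjusted p 0.0437 to 0.139 over the 6), with no minimal expression (0.0669) and with the replicate number as a block (0.0614). All frog controls lay below all tadpole controls for these 4 entries. The frog controls all carry the letter R and no tadpole control does. Stage can therefore not be told apart here from whatever the letter stands for.

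The naive eye differed from the frog control hindbrain in 7 entries, 4 higher and 3 lower, against 77.3% of all entries called, 41.4% higher and 35.9% lower. PRMT1.L (49.4 ± 2.67 in eye, 38.3 ± 3.44 in hindbrain), PRMT1.S (99.9 ± 2.79 and 76.5 ± 1.34), PRMT5 X000367 (14.3 ± 1.25 and 11.0 ± 0.599) and PRMT5 X049717 (12.8 ± 0.205 and 9.58 ± 0.538) were higher in eye by a log2 fold change of 0.37 to 0.40. CARM1 X011846 was at 2.22, 2.44 and 2.22 in naive eyes and at 7.58, 7.07 and 6.97 in frog hindbrain, 1.46 lower on the log2 scale (SE 0.10, adjusted p = 2.2e-06). PRMT2 and CARM1 XeXenL6RMv10002312m were lower in eye by 0.85 and 0.86. PRMT2 averaged 3.73 in naive eyes, 7.15 in the frog controls and 2.86 to 4.21 in the frog SCI hindbrains. The frog controls all carry the letter R and no naive eye does. Tissue can therefore not be told apart here from whatever the letter stands for. CARM1 S35720565 averaged 7.19 in both tissues (± 0.672 and ± 0.648).

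**Figure D1:**
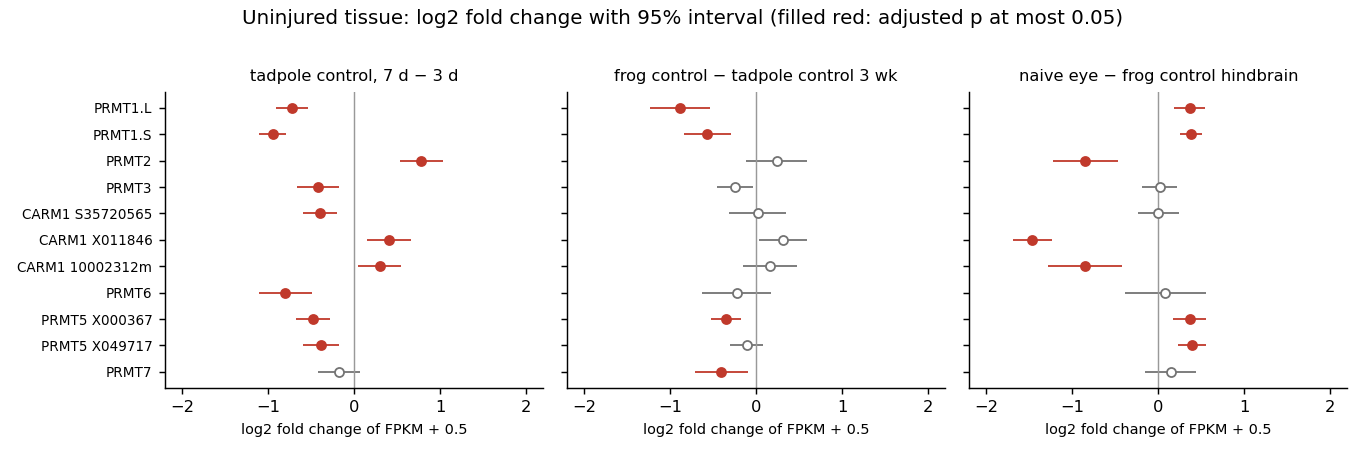
Log2 fold change of FPKM + 0.5 (horizontal axis) of the 11 PRMT entries (rows) between groups of uninjured tissue, 3 libraries per group; points are limma estimates, bars 95% intervals, and filled red points entries with an adjusted p of at most 0.05. PRMT1.S is 0.95 lower and PRMT2 0.78 higher in 7 day than in 3 day tadpole controls, and CARM1 X011846 is 1.46 lower in naive eye than in frog hindbrain.

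After injury, PRMT1.S was called higher at the middle time point of both regenerating tissues, the hindbrain of SCI tadpoles (7 days) and the eye on the ONC side (11 days). In the frog SCI hindbrain PRMT2 was called lower and CARM1 S35720565 higher at 3 days. No other entry was called in the 9 comparisons of injured with control tissue. The counts stand beside the background of each comparison. At 7 days after tadpole SCI 1 of the 11 entries was called, against 4.91% of all tested entries (2.85% higher), and at 11 days after ONC 1 of 11, against 2.86% (2.24% higher). At 3 days after frog SCI 2 of 11 were called, 1 in each direction, against 11% of all (7.36% higher and 3.67% lower). Under a median-of-ratios scaling the higher share of all calls in that comparison was 52.9% in place of 66.7%, and the same 2 members were called. At the other 6 time points limma called 0 of 11, where 1.85% (tadpole, 3 days), 0.101% (tadpole, 3 weeks), 1.42% (frog, 7 days), 0.403% (frog, 3 weeks), 0.19% (eye, 3 days) and 0.612% (eye, 3 weeks) of all entries were called. At an unadjusted p under 0.05 these 6 comparisons had 0, 2, 2, 6, 1 and 0 member entries, in that order, beside 20.7%, 16.9%, 18.5%, 20.7%, 6.54% and 10% of all entries. With the replicate number as a block 0 of 11 members were likewise called at 3 days (1001 entries called in place of 362) and 3 weeks (4 in place of 20) after tadpole SCI and at 3 days after ONC (149 in place of 42).

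PRMT1 methylates histone H4 and RNA-binding proteins such as hnRNP K, and its S homeolog rose at 7 days after tadpole SCI. PRMT1.S was at 169, 182 and 134 FPKM in the SCI libraries and at 111, 107 and 113 in the age-matched controls. All 3 SCI libraries lay above all controls, with replicate 3 nearest to them. The means were 161.5 ± 24.6 and 110.1 ± 3.27 (SD, n = 3), a log2 fold change of 0.54 (SE 0.12, adjusted p = 0.0366). PRMT1.L was at 94.0, 96.2 and 73.5 against 63.2, 68.7 and 67.7, again without overlap, with a log2 fold change of 0.39 (SE 0.11) and an adjusted p of 0.0759 that missed the threshold. The SCI values of 7 days lay between those of the 3 day and the 7 day controls and overlapped with neither for either homeolog. At 3 days and at 3 weeks the SCI and control libraries overlapped for both homeologs. At 3 days PRMT1.S was at 185, 215 and 208 after SCI, and at 3 weeks at 82.9, 90.1 and 105, with log2 fold changes of -0.07 and -0.30 (adjusted p = 0.654 and 0.318).

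Genes of dividing cells moved in the same tadpole hindbrains. The summed FPKM of 30 entries of 15 such genes (among them MKI67, TOP2A and PCNA) was 350 to 383 in the 3 day controls, 86.4 to 91.9 in the 7 day controls and 161 to 205 at 7 days after SCI, where 21 entries rose and 0 fell of the 24 tested. At 3 days after SCI the sum was 236 to 270, 14 fell and 0 rose of the 25 tested, while PRMT1.S differed from its controls by less than its spread. Of all tested entries 4.91% were called at 7 days and 1.85% at 3 days. Eye transcripts were also seen in some hindbrain libraries, with lens genes summing to between 13.4 and 421 at 7 days after SCI and between 16.5 and 28.9 in the controls, set against 209400 or more in each naive eye. The part of these cells in the PRMT1 values was not tested. PRMT1 is on the study's own list of regeneration-associated genes at the middle time point, which was drawn from these libraries, and its direction here is therefore not independent evidence. The study's list, made from CuffDiff2 calls in both regenerating tissues, has rows for both homeologs, whereas limma here called PRMT1.S only. The call for PRMT1.S at 7 days was lost when any of 5 of the 6 libraries was left out (log2 fold change 0.45 to 0.56, adjusted p 0.0852 to 0.139), and without SCI replicate 3 the fold change was 0.67 with an adjusted p of 0.00781.

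In the frog hindbrain, where spinal axons do not regrow, PRMT1 was not called at any time. PRMT1.S was at 77.9, 76.4 and 75.3 FPKM in the controls, at 63.6, 66.8 and 76.5 at 3 days, at 77.6, 88.0 and 78.4 at 7 days and at 87.8, 95.2 and 92.3 at 3 weeks after SCI. Only the 3 week values lay wholly above the controls, with a log2 fold change of 0.26 (SE 0.07, adjusted p = 0.0942). PRMT1.L followed the same course, at 32.8, 28.9 and 37.2, then 35.4, 45.0 and 40.3, then 49.1, 47.7 and 53.4, against 35.0, 41.9 and 38.0 in the controls, with a log2 fold change of 0.38 (SE 0.08, adjusted p = 0.0761) at 3 weeks. The dividing-cell sum stayed between 30.6 and 39.5 FPKM in all 12 frog hindbrain libraries.

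In the eye, PRMT1.S was at 147, 150 and 130 FPKM at 11 days after ONC and at 91.5, 101 and 104 in the contralateral eyes. The groups did not overlap, and the log2 fold change was 0.53 (SE 0.11, adjusted p = 0.0495). PRMT1.L was at 74.0, 74.7 and 66.5 against 55.0, 47.9 and 56.6, with a log2 fold change of 0.43 (SE 0.11, adjusted p = 0.0818). Together the 2 homeologs were at 221, 225 and 197 in ONC eyes and at 147, 149 and 160 in contralateral eyes. At 3 days PRMT1.S was at 118, 131 and 130 against 94.2, 87.9 and 118, a log2 fold change of 0.35 with an adjusted p of 0.768, the lowest ONC and the highest contralateral value being almost the same. For PRMT1.L at 3 days the libraries with the letter B (64.4 and 67.3 after ONC, 61.7 contralateral) were the highest. Its values there moved with the letter. PRMT1.S was not so ordered, its highest value being that of the ONC eye without the letter. At 3 weeks the PRMT1.S groups overlapped, at 101, 89.5 and 100.5 against 94.6, 79.2 and 93.1.

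The PRMT1.S call at 11 days was at the threshold. It was lost without any one of the 6 libraries (log2 fold change 0.47 to 0.59, adjusted p 0.066 to 0.241) and with the letter B as a covariate (0.49, adjusted p = 0.0852). Only ONC replicate 2 of these libraries lacks the letter. The covariate therefore sets that library apart and is no separate check of the letter. Against naive eyes in place of contralateral eyes PRMT1.S had an adjusted p of 0.0121, but no naive eye carries the letter B. With the replicate number as a block, in eyes that came from the same frogs, the log2 fold change was 0.53 and the call was lost (adjusted p = 0.107). Some of the cell type markers in the same eyes were as follows, where 2.86% of all tested entries were called. Dividing-cell genes summed to 123 to 153 FPKM in ONC eyes and to 103 to 117 in contralateral eyes, with none of the 23 tested entries called. Neuronal genes summed to 2459 to 2943 against 1382 to 1419, with 4 of 17 entries called higher, those of STMN2 and TUBB3, cytoskeletal genes of growing axons. Genes of ganglion cells and the inner retina summed to 194 to 240 against 350 to 404, with 2 of 11 called lower, both of CALB2. Photoreceptor genes summed to 10800 to 12660 against 12940 to 14290, without overlap. Lens genes summed to 253800 to 431100 against 271700 to 462300, which overlap. Their part in the PRMT1 values was not tested. Apart from these libraries, the study hybridised a PRMT1 probe in situ to retinal sections of perfused frogs at peak regrowth after ONC. It reported more label in operated eyes, in the ganglion cell layer and beyond it. The probe did not tell the homeologs apart.

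**Figure D2:**
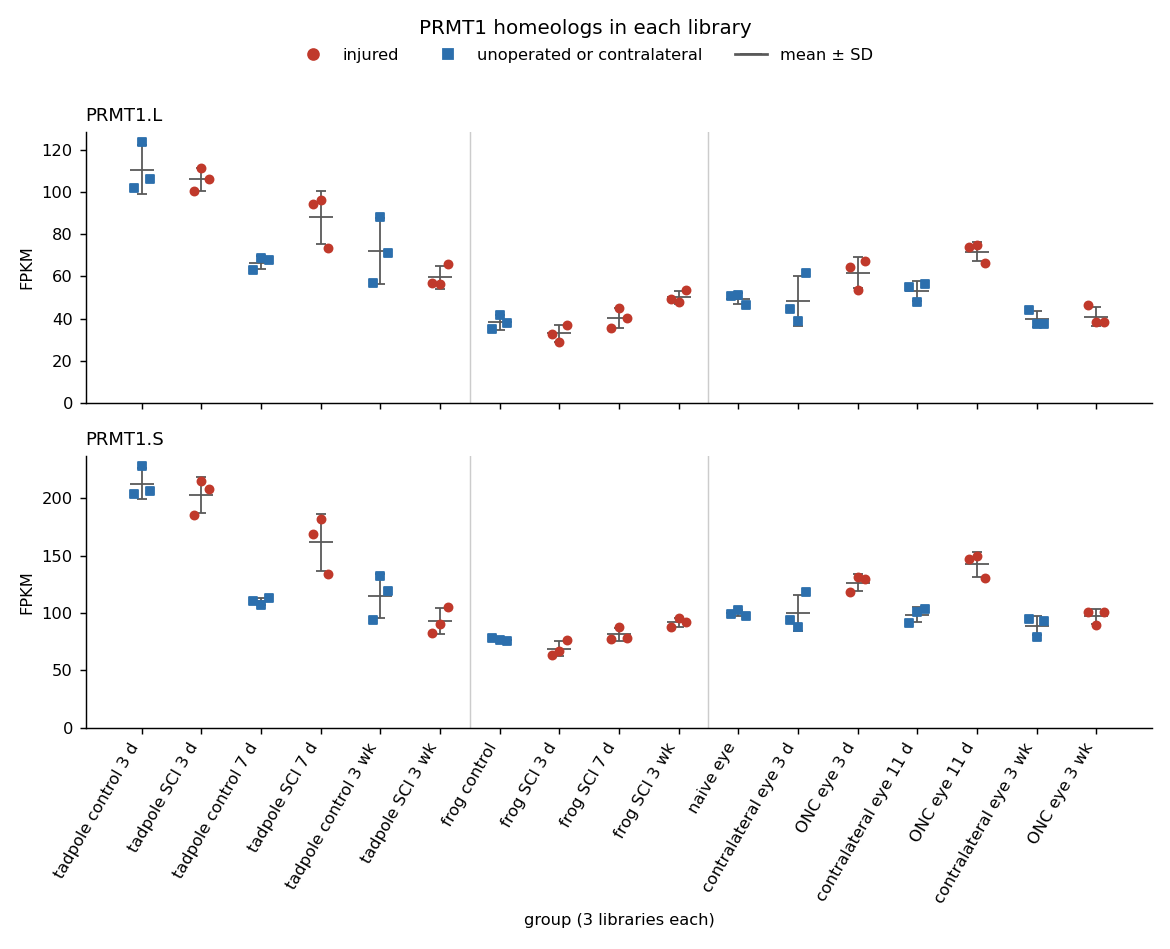
FPKM (vertical axes, from 0) of PRMT1.L and PRMT1.S in each library of the 17 groups; red circles are injured, blue squares unoperated, naive or contralateral, and grey bars the mean ± SD of 3 libraries. PRMT1.S falls from 212.7 in the 3 day to 110.1 in the 7 day tadpole controls, and SCI libraries of 7 days (134 to 182) and ONC eyes of 11 days (130 to 150) lie above their controls.

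Ordered by mean level over the 17 groups, PRMT1.S descended from 212.7 ± 13.6 FPKM in the 3 day tadpole controls and 202.6 ± 15.7 at 3 days after tadpole SCI, through 161.5 ± 24.6 at 7 days after tadpole SCI, 142.3 ± 10.7 and 126.5 ± 7.32 in ONC eyes of 11 and 3 days, to 81.3 ± 5.79, 76.5 ± 1.34 and 69.0 ± 6.72 in the frog hindbrain at 7 days after SCI, without SCI and at 3 days after SCI. The other 9 groups lay between 88.9 and 114.8. The 2 tadpole groups of 3 days stood apart from the next group, and every other pair of neighbours in this order overlapped. PRMT1.L had the same 3 leading groups, from 110.5 ± 11.5 down to 33.0 ± 4.15 at 3 days after frog SCI, a ratio of 3.35. For PRMT3 the ratio of the highest to the lowest group mean was 1.56, the smallest of the 11 entries.

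PRMT1.S exceeded PRMT1.L in all 51 libraries, by 1.46 to 2.31 times in hindbrain (median 1.845) and 1.66 to 2.62 times in eye (median 2.101). The ratio was 1.93 ± 0.075 in the 3 day tadpole controls and 1.66 ± 0.101 in those of 7 days, and 2.01 ± 0.202 in the frog controls. Reads that fitted both homeologs equally well had been divided at random by the authors, so that the values of the pair are not independent of each other. In the entry names, which use the JGIv7b assembly, PRMT1.L lies on scaffold 000029769 from 1540404 to 1552299 and PRMT1.S on scaffold 000129797 from 250933 to 262238, both on the minus strand.

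PRMT2 was the member with the largest response to injury. In frog hindbrain it was at 5.83, 6.95 and 8.69 FPKM in the controls and at 2.82, 2.82 and 2.95 at 3 days after SCI. No SCI library came near a control. The means were 7.15 ± 1.44 and 2.86 ± 0.0742 (SD, n = 3), a fall of 1.17 on the log2 scale (SE 0.14, adjusted p = 0.00474), and PRMT2 stayed called without each library in turn (adjusted p 0.00743 to 0.0256). At 7 days it was at 4.20, 4.24 and 3.52 and at 3 weeks at 4.63, 3.98 and 4.03, below every control at both times, with log2 fold changes of -0.76 (SE 0.15, adjusted p = 0.0502) and -0.69 (SE 0.15, adjusted p = 0.0754) that missed the threshold. The 3 comparisons share the controls, which were the highest group for PRMT2 of all 17 and which carry the letter R.

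In tadpoles PRMT2 was at 4.96, 3.40 and 3.40 FPKM at 3 days after SCI, above the controls at 2.93, 2.98 and 3.28, a log2 fold change of 0.29 with an adjusted p of 0.284. At 7 days it was at 3.35, 4.34 and 3.80 against 5.23, 5.36 and 6.35, and at 3 weeks at 3.50, 4.38 and 4.21 against 5.97, 5.16 and 6.67. All SCI libraries lay below all controls at both times, yet the log2 fold changes of -0.51 and -0.50 had adjusted p-values of 0.0616 and 0.142. In ONC eyes PRMT2 was at 3.84, 4.13 and 4.0 against 5.55, 5.16 and 4.25 at 3 days, at 3.36, 2.81 and 2.75 against 3.51, 4.36 and 3.66 at 11 days and at 2.94, 5.00 and 5.52 against 4.04, 5.08 and 4.91 at 3 weeks. The ONC eyes lay below the contralateral eyes without overlap at 3 and 11 days only, and the log2 fold changes of -0.28, -0.32 and -0.09 were not called.

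The response of PRMT2 at 3 days was also compared between tadpoles and frogs, which have different control sets. An interaction term compared the tadpole with the frog response, and called 2 of the 11 members, 1 higher and 1 lower in tadpoles, against 5.91% of all entries (2.69% higher and 3.23% lower). The higher share of these calls was 45.4%, and 57.3% under a median-of-ratios scaling. The PRMT2 response was 1.46 higher in tadpoles on the log2 scale (SE 0.21, adjusted p = 0.00434), with values above the controls in tadpoles and below them in frogs. The frog controls, at 7.15 FPKM and with the letter R, were the highest of the 17 groups for PRMT2. The 3 day tadpole controls, at 3.06, carry no time in their labels. The SCI means were 2.86 in frogs and 3.92 in tadpoles. Stage can therefore not be told apart here from another difference between the control sets. Microglial genes differed in the same frog libraries, with 9 entries of 6 found genes summing to 13.7 to 17.1 FPKM in controls and 31.1 to 38.8 at 3 days after SCI, and the myelin genes summed to 15480 to 17100 and 20880 to 22280. In tadpoles of 3 days the microglial sums were 8.80 to 14.2 in controls and 14.3 to 15.9 after SCI. Lens genes summed to 15.3 to 279 FPKM in the frog controls and to 247 to 446 at 3 days after frog SCI. In tadpoles of 3 days the lens sums were 32.7 to 92.5 in controls and 13.6 to 34.9 after SCI. The part of these cells in the PRMT2 and CARM1 values was not tested.

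CARM1 S35720565, on JGIv7b scaffold 000293151 from 356 to 20621, was the other entry called at 3 days after frog SCI. It was at 11.9, 10.1 and 9.27 FPKM in the SCI libraries and at 7.28, 7.79 and 6.50 in the controls, without overlap, a log2 fold change of 0.50 (SE 0.11, adjusted p = 0.0328). At 7 days it was at 6.84, 6.90 and 8.02 and at 3 weeks at 6.21, 6.17 and 7.36, in the range of the controls or next to it. The call at 3 days held in 1 of the 6 fits that left out a library, the one without SCI replicate 3 (adjusted p 0.0465 to 0.096 over the 6). In tadpoles of 3 days the same entry was at 14.5, 12.4 and 12.3 after SCI and at 15.1, 13.5 and 13.8 in controls. The interaction term gave a response 0.61 lower in tadpoles on the log2 scale (SE 0.14, adjusted p = 0.0338), which kept its call in 4 of the 12 fits that left out a library. It rests on the same control sets as that of PRMT2.

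The other CARM1 entries did not share that rise. CARM1 X011846 was at 5.98, 6.04 and 5.85 FPKM at 3 days after frog SCI and at 7.58, 7.07 and 6.97 in the controls, below them without overlap but not called (log2 fold change -0.25, adjusted p = 0.0993). CARM1 XeXenL6RMv10002312m was at 2.24, 3.06 and 3.01 against 2.53, 3.09 and 2.66. Summed over the 3 entries, CARM1 was at 20.1, 19.2 and 18.1 after SCI and at 17.4, 18.0 and 16.1 in controls. The ratio of S35720565 to X011846 was 3.76 ± 0.623 in the 3 day tadpole controls, 2.04 ± 0.180 in those of 7 days, 1.25 ± 0.227 in those of 3 weeks and 0.9985 ± 0.0909 in frog controls, and it was 1.75 ± 0.212 at 3 days after frog SCI. In the eyes of 3 days CARM1 S35720565 spread from 1.70 to 8.85, and the 3 libraries with the letter B (4.49 and 3.32 after ONC, 1.70 contralateral) were the lowest, so that ONC and contralateral values there moved with the letter.

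**Figure D3:**
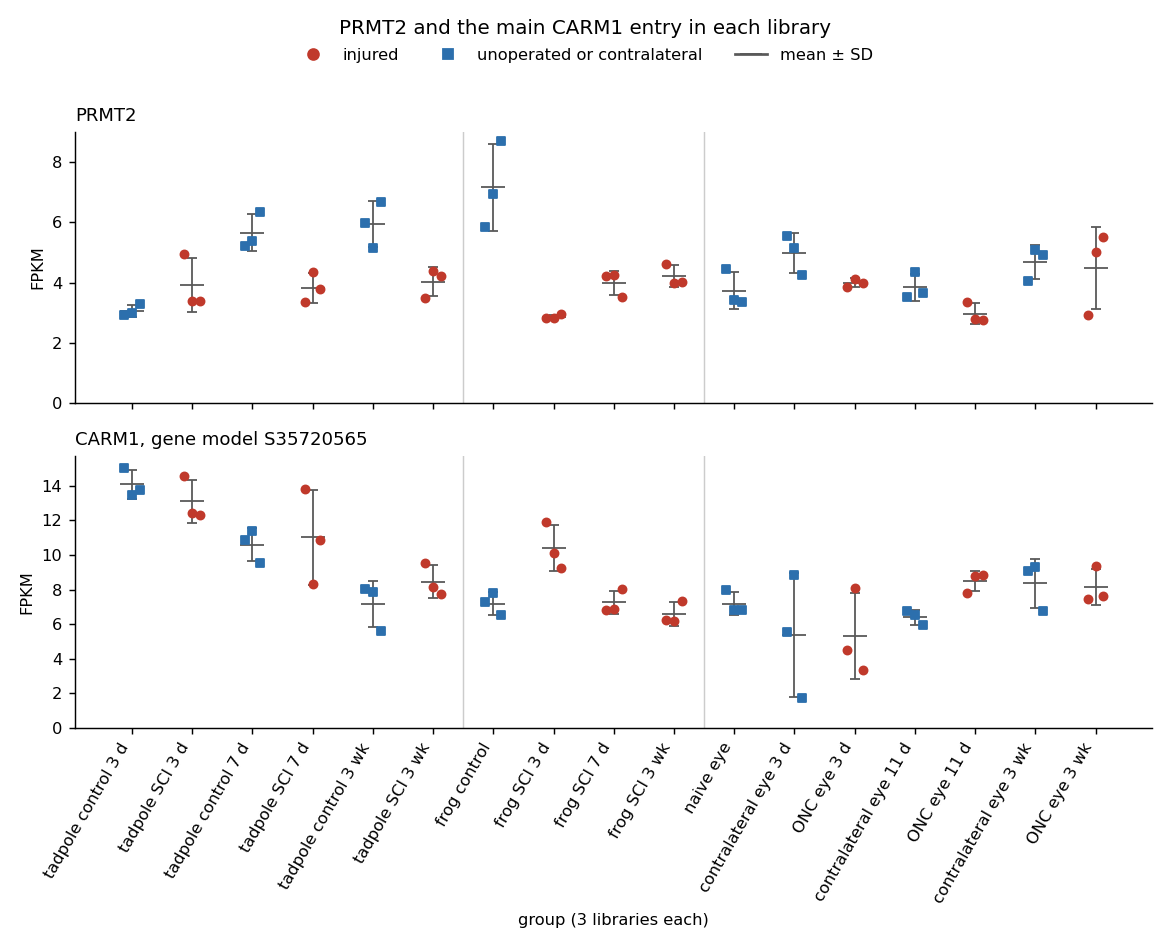
FPKM (vertical axes, from 0) of PRMT2 and of CARM1 S35720565 in each library of the 17 groups; red circles are injured, blue squares unoperated, naive or contralateral, and grey bars the mean ± SD of 3 libraries. At 3 days after frog SCI PRMT2 is at 2.82 to 2.95 against 5.83 to 8.69 in the controls, and CARM1 S35720565 is at 9.27 to 11.9 against 6.50 to 7.79.

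PRMT3 and PRMT6, the remaining type I members, were not called after injury. PRMT3 was highest relative to its controls at 3 weeks after frog SCI, at 14.5, 12.2 and 11.1 FPKM against 10.3, 9.0 and 9.03, and at 11 days after ONC, at 11.5, 13.3 and 11.9 against 8.43, 10.5 and 10.1. Both were without overlap, with log2 fold changes of 0.39 (adjusted p = 0.114) and 0.33 (adjusted p = 0.18). PRMT6 had the widest replicate spread of the hindbrain entries, a median coefficient of variation of 16.3%. Its largest difference was a log2 fold change of 0.34 at 7 days after tadpole SCI, where 9.92, 6.86 and 6.56 overlapped with 7.08, 6.12 and 4.81.

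PRMT5, the main type II enzyme, acts in the methylosome that prepares Sm proteins for the spliceosome and also methylates histones. Neither entry was called after injury. At 11 days after ONC PRMT5 X000367 was at 15.7, 16.2 and 16.2 FPKM against 11.6, 13.3 and 11.7, without overlap, a log2 fold change of 0.38 (SE 0.10, adjusted p = 0.0859), and X049717 was at 14.8, 13.8 and 13.4 against 11.6, 12.3 and 11.6 (0.23, adjusted p = 0.229). At 7 days after tadpole SCI X000367 was at 18.8, 17.6 and 14.4 against 15.7, 14.4 and 13.3, which overlap. The balance between the entries differed by stage. X000367 exceeded X049717 in 18 of 18 tadpole libraries, by 1.13 to 1.575 times, and in 7 of 12 frog hindbrain libraries, where the ratio ran from 0.875 to 1.29. For X049717 all SCI libraries of 3 weeks lay below their controls in tadpoles (8.43, 8.32 and 8.82 against 10.4, 9.86 and 10.9) and above them in frogs (11.1, 12.8 and 10.8 against 10.1, 9.57 and 9.05), with log2 fold changes of -0.27 and 0.26 that were not called.

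PRMT7, the monomethylating enzyme, was not called after injury either. It was below its controls without overlap at 3 days after frog SCI (2.68, 3.26 and 3.12 FPKM against 3.48, 4.57 and 3.88, log2 fold change -0.34, adjusted p = 0.138). In ONC eyes it was above the contralateral eyes without overlap at 3 days (4.62, 4.06 and 5.95 against 3.37, 3.60 and 3.55) and at 11 days (4.18, 3.79 and 3.89 against 3.50, 3.20 and 2.91), with log2 fold changes of 0.41 and 0.27 (adjusted p = 0.755 and 0.269). At 11 days after ONC 10 of the 11 members had a positive log2 fold change, with a median of 0.28 over the members and of -0.05 over all tested entries, of which 42.6% were positive. At 7 days after tadpole SCI 8 of 11 were positive (50.9% of all entries), and at 3 days after frog SCI 2 of 11 (55.4% of all). The counts were 3 of 11 (50.8%) at 3 days and 2 of 11 (48.5%) at 3 weeks after tadpole SCI. They were 7 of 11 both at 7 days (53.2%) and at 3 weeks (50.7%) after frog SCI. In ONC eyes 7 of 11 (44.4%) were positive at 3 days and 8 of 11 (47.1%) at 3 weeks. Homeolog entries of the same gene are not independent of each other, and these counts carry no test.

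**Figure D4:**
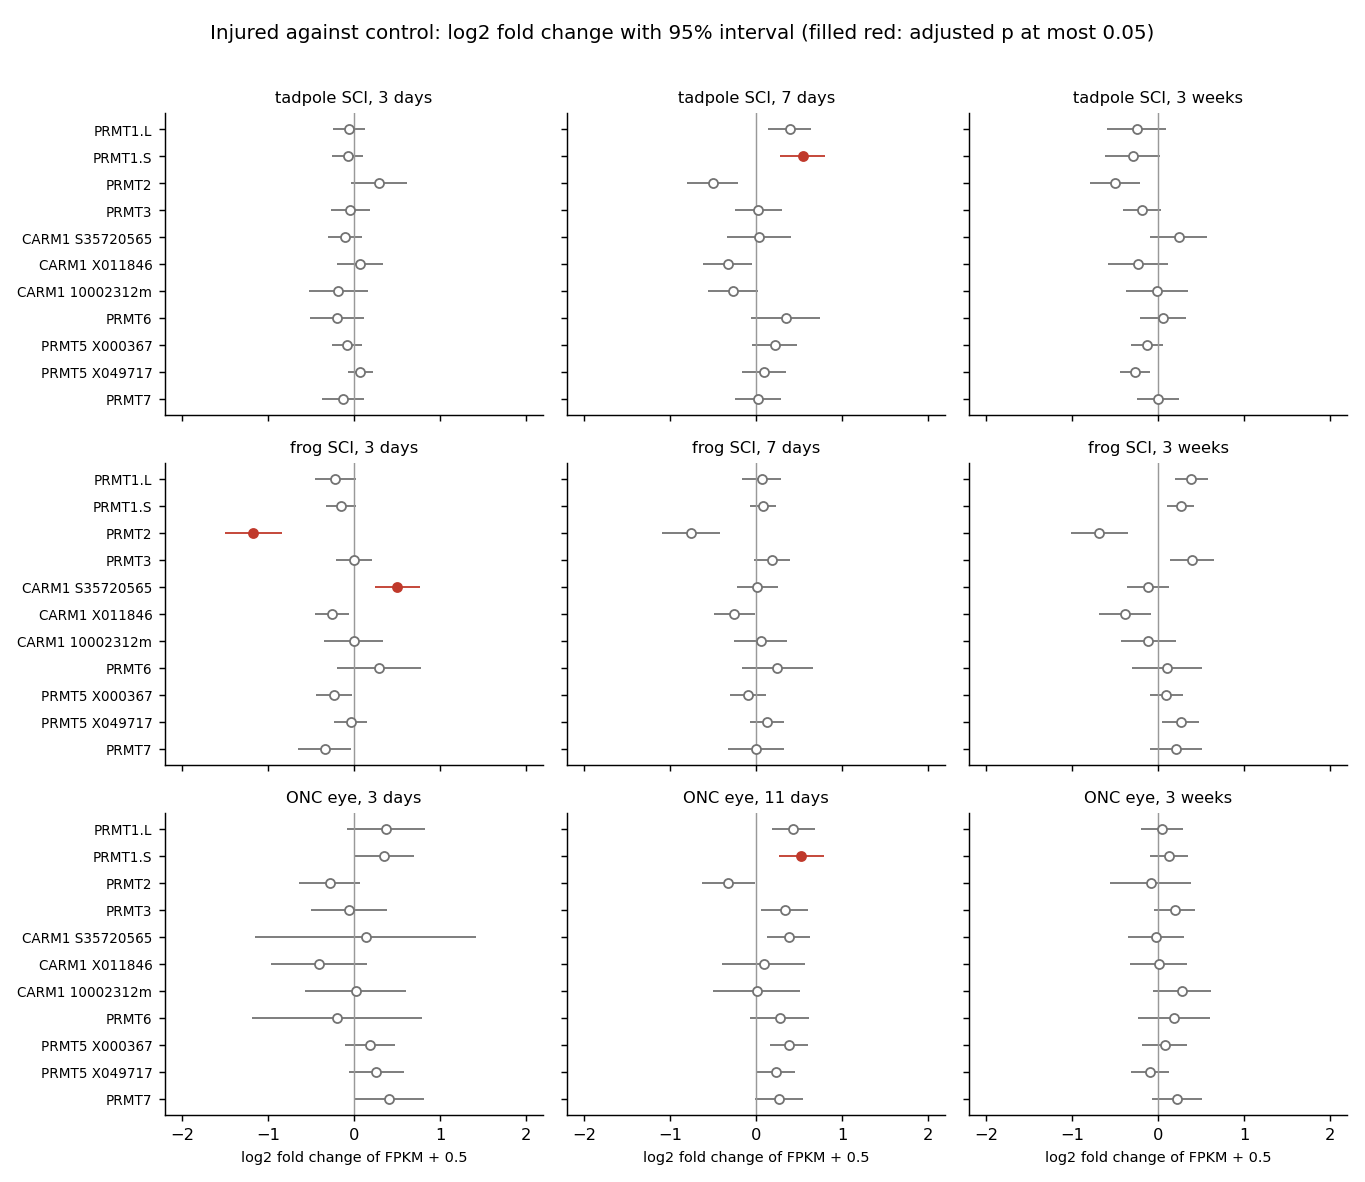
Log2 fold change of FPKM + 0.5 (horizontal axes) of the 11 PRMT entries (rows) in injured against control tissue at the 9 time points, 3 libraries per group; points are limma estimates, bars 95% intervals, and filled red points entries with an adjusted p of at most 0.05. PRMT1.S is filled at 7 days after tadpole SCI (0.54) and 11 days after ONC (0.53), and PRMT2 (-1.17) and CARM1 S35720565 (0.50) at 3 days after frog SCI.

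Contralateral eyes were compared with naive eyes to see whether the control eye itself had moved. All 3 contralateral eyes of 11 days and no naive eye carry the letter B. At 11 days whatever the letter stands for can therefore not be told apart from a move of the control eye. None of the 11 entries was called at any of the 3 times, where limma called 0.102%, 9.18% and 8.26% of all entries, and 1 member had an unadjusted p under 0.05 at each time, beside 14.6%, 28.5% and 28.3% of all entries. PRMT1.S was at 99.1, 103 and 97.5 FPKM in naive eyes and at 91.5, 101 and 104 in contralateral eyes of 11 days. At 3 weeks the contralateral PRMT1.L values of 44.2, 37.4 and 37.6 lay below the naive ones of 50.6, 51.2 and 46.3, with a log2 fold change of -0.31 (SE 0.09, adjusted p = 0.0603).

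Whether the responses of PRMT1 in regenerating tissue differed from that of the frog hindbrain was tested as an interaction. For tadpole against frog SCI at 7 days, the PRMT1.S response was 0.46 higher in tadpoles on the log2 scale (SE 0.14, 95% interval 0.16 to 0.75, adjusted p = 0.0812). For the ONC eye at 11 days against frog SCI at 7 days it was 0.44 higher in the eye (SE 0.12, 95% interval 0.17 to 0.71, adjusted p = 0.0614). For the eye against frog SCI at 3 days it was 0.50 higher in the eye (SE 0.17, adjusted p = 0.172). These 3 tests called 0 of 11 members, against 4.35%, 5.21% and 1.06% of all entries, while 1, 4 and 5 members had an unadjusted p under 0.05, beside 20.6%, 20.9% and 16.2% of all entries. A difference of the PRMT1.S response from that of frogs was thus not shown by this test.

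Genes around the enzymes were followed in 6 lists, of other family members, partners and regulators, readers of methylarginine, the methionine cycle that supplies S-adenosylmethionine, enzymes that clear methylarginines or convert arginine to citrulline, and RNA-binding substrates. Of the other family members, with 4 entries of 4 found genes, PRMT8, the membrane-anchored enzyme of neurons, fell after SCI at 3 days in tadpoles (28.1 to 22.5 FPKM, log2 fold change -0.32, SE 0.06) and at 3 days (17.75 to 14.03, -0.33) and 7 days (17.75 to 13.3, -0.41) in frogs, with adjusted p-values of 0.042, 0.0354 and 0.0438. The frog comparisons share their controls, which carry the letter R, and the 3 day tadpole controls carry no time in their labels. Both limits hold for the list genes below wherever those controls are used. NDUFAF7, a mitochondrial arginine methyltransferase, fell at 3 days after frog SCI. Of 9 partner and regulator entries, WDR77, the partner of PRMT5, rose in the ONC eye at 11 days (20.6 to 29.7, log2 fold change 0.52, SE 0.09, adjusted p = 0.0237), and BTG1 rose and BTG2 fell at 7 days after tadpole SCI. The BTG proteins bind PRMT1.

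The methionine cycle list had 12 entries of 8 genes, of which 11 were tested in hindbrain. MAT2A makes S-adenosylmethionine in most tissues, and its entry X046615 fell in 5 of the 6 SCI comparisons. In tadpoles it went from 51.6 to 33.4 FPKM at 7 days (log2 fold change -0.61, adjusted p = 0.0483) and from 52.7 to 29.8 at 3 weeks (-0.81, adjusted p = 0.0271). In frogs it went from 58.3 to 32.5, 37.8 and 37.7 at the 3 times (-0.83, -0.62 and -0.63, adjusted p = 0.00135, 0.00638 and 0.0364). The frog comparisons share their control libraries, which carry the letter R, and are not independent of each other. At 3 days after frog SCI MAT2A X001863 fell as well and MAT1A rose. In the ONC eye at 11 days 3 of the 12 entries rose and 0 fell. These were both entries of AHCY, which hydrolyses the S-adenosylhomocysteine left by methylation (37.6 to 70.0 and 14.3 to 27.2 FPKM, log2 fold changes 0.89 and 0.91, adjusted p = 0.00295 and 0.00147), and MAT2A X001863 (38.2 to 66.4, 0.77, adjusted p = 0.0408). The list's median log2 fold change there was 0.05, against -0.05 over all entries. Of all tested entries 2.24% were called higher there. Both AHCY entries fell at 3 days after tadpole SCI, from 66.6 to 52.4 and from 41.6 to 25.0 (-0.34 and -0.72).

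Of 13 reader entries, 12 of them tested, SMN1 and SMN2 were the ones called, both lower, at 7 days after tadpole SCI (21.3 to 15.9 and 6.96 to 4.60 FPKM) and at 3 days after frog SCI (30.7 to 19.97 and 9.17 to 5.46, adjusted p = 0.00361 and 0.031). They encode the survival motor neuron protein, whose Tudor domain binds methylated Sm proteins. Of 51 entries of 25 RNA-binding substrates, 48 or 49 of them tested, 5 rose and 13 fell at 3 days after frog SCI, 3 rose and 1 fell at 7 days after tadpole SCI, 0 rose and 6 fell at 3 days after tadpole SCI, and 2 rose and 0 fell at 11 days after ONC. Of all tested entries 7.36% were called higher and 3.67% lower in the first of these comparisons. In the others, in that order, 4.91% (2.85% higher), 1.85% and 2.86% (2.24% higher) were called. The cold-inducible RNA-binding protein CIRBP fell by 1.17 on the log2 scale at 3 days after frog SCI (399.5 to 178.2 FPKM, adjusted p = 0.00213) and by 0.48 at 7 days (to 286.5, adjusted p = 0.0369). ELAVL4 TC420387, of a neuronal RNA-stabilising protein, rose from 23.5 to 84.7 FPKM at 11 days after ONC (log2 fold change 1.81, SE 0.15, adjusted p = 0.000416) and from 29.5 to 61.1 at 3 weeks (1.03). SFPQ X008320 fell at 7 days after tadpole SCI (69.6 to 50.2) and at 3 days after frog SCI (77.4 to 55.7). NPM1 X014443 rose in the first (47.9 to 67.0) and fell in the second (33.2 to 25.6). RPS2 X004283, of the ribosomal protein methylated by PRMT3, fell at 3 days after tadpole SCI (485.5 to 346.5 FPKM, adjusted p = 0.0356) and rose at 3 days after frog SCI (98.6 to 141.5, adjusted p = 0.0461). TAF15 S21696642, of an RNA-binding protein, fell in both (21.6 to 15.8 and 17.2 to 12.04, adjusted p = 0.0417 and 0.0379). FBL X018547, of the nucleolar protein fibrillarin, rose at 3 and 7 days after frog SCI (5.21 to 7.90 and 7.80, adjusted p = 0.0337 and 0.0454). Of the 9 clearance entries, at 3 days after frog SCI PADI2, which converts arginine to citrulline, rose from 34.0 to 53.3 FPKM (adjusted p = 0.00472) and DDAH1, which degrades free methylarginine, fell from 20.6 to 16.5 (adjusted p = 0.0434). The genes called once here (NDUFAF7, WDR77, BTG1, BTG2, MAT1A, PADI2 and DDAH1) were chosen after their values were seen.

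Other entries were ranked by how closely they followed PRMT1. Over the 17 group means of log2(FPKM + 0.5), with hindbrain and eye groups centred separately, the 5 entries most like PRMT1.L of 20031 compared were RANBP1, a Ran-binding protein of nuclear transport (r = 0.989), the Sm protein SNRPD1 (0.985), NAA38 (0.982) and 2 entries of the histone acetyltransferase NAA40 (0.982 and 0.982). For PRMT1.S they were PSMC6 and PSMB1 of the proteasome (0.982 and 0.978), CCT6A and CCT5 of the chaperonin (0.98 and 0.976) and an entry with the symbol DKFZP686D09174 (0.977). Among the members, PRMT1.S was most like PRMT5 X000367 (0.968), and PRMT1.L and PRMT1.S were at 0.965 with each other. These values describe 17 groups, several of which share a developmental stage, and carry no test. CARM1 S35720565 and X011846 ran against each other, at -0.74.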

How the data were processed

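RNA had been depleted of ribosomal RNA and sequenced from stranded libraries. The authors aligned reads to the Xenbase v9.1 genome (Bowtie2 2.2.9 and TopHat2 2.1.1 in the submitters' notes), gave reads that fitted several homeologs to the better-scoring one or, where scores tied, to one at random, and deposited FPKM values per gene model and library, scaled between libraries by CuffDiff2. Read counts were not used here, so the counting error of each entry is unknown, and depth is given above only relative to the median library.

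FPKM + 0.5 was taken to log2 and tested in limma 3.58.1 (R 4.3.3) with a mean-variance trend, on the libraries of the compared groups only, for entries of at least 0.45 FPKM on average in one of them, with p adjusted over all of these. Differences between responses were interaction terms. Levels and figures were made with Python 3.11.15, numpy 2.4.6, pandas 2.3.3 and matplotlib 3.10.9. The fits were also run on simulated data with independent noise in each library, which cannot speak to pairing or to the letters. All 11 member entries were described, and genes of the 6 lists of surrounding genes were named where called in 2 or more of the 9 injury comparisons. Members and lists were chosen with earlier results of these data known. Alternatives were another scaling, 2 other filters, 2 other pseudocounts, a fit over all groups of a tissue, a replicate block, the letter B as a covariate, naive instead of contralateral control eyes, and each library left out. Deviations of same-numbered libraries correlated above 0.1 in all 3 pairs (0.25, 0.153 and 0.18) only at 3 days after tadpole SCI. The mean r of same-numbered pairs was 0.194, 0.103 and 0.15 in the 3 tadpole SCI comparisons. It was 0.125 and 0.124 in ONC eyes of 11 days and 3 weeks. No other matching of the numbers gave as high a mean in these comparisons. The same held for frog SCI of 3 days (0.112) and contralateral against naive eyes of 3 weeks (0.144), where no pairing is described. In ONC eyes of 3 days the pairs were at -0.198, 0.541 and 0.667. By the study's methods operated and contralateral eyes came from the same frogs and tadpole SCI and control pools were paired, while the matching of the numbers is not stated, so the fit without the block was kept as the main one and blocked values are given where they change a call.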

Additional observations from a re-analysis of the deposited data

Results flagged for a closer look

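The response of PRMT2 at 3 days after SCI was 1.46 higher in tadpoles than in frogs on the log2 scale, by an interaction term in limma (SE 0.21, adjusted p = 0.00434), and that of CARM1 S35720565 differed by -0.61 (SE 0.14, adjusted p = 0.0338). Both rest on frog controls with the letter R and on tadpole controls without a time in their labels. Stage cannot be told apart there from another difference between the control sets. PRMT2 also lay above its controls in every tadpole SCI library and below them in every ONC eye at 3 days, a difference of log2 fold changes of 0.58 that was not tested. PRMT5 X049717 lay below its controls in every tadpole SCI library and above them in every frog SCI library at 3 weeks, a difference of -0.53 that was not tested. Both untested differences came from a search of all member entries for groups apart in opposite directions, and only the hits are given.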

How the results depend on the processing

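The 27 results on single entries were refitted under 365 alternatives. Of these 318 kept the direction and the side of the threshold, 47 kept the direction and lost the call, and 0 turned the direction. Only called entries were refitted, so that no call could be gained. Leaving out a library kept PRMT1.S in 0 of 6 fits (ONC, 11 days) and 1 of 6 (tadpole SCI, 7 days). It kept CARM1 S35720565 in 1 of 6 (frog SCI, 3 days) and 4 of 12 (interaction). The other alternatives kept these calls in 6 of 9, 6 of 7, 7 of 7 and 6 of 7, in that order. PRMT2 kept both its calls of this kind in every fit. Of 145 alternatives for the 20 counts of members called, those leaving out a library aside, 125 gave a count within 1.5 times the main one. The exceptions were as follows, and their cause was not tested. With all groups of a tissue in 1 fit, 3 members were called at 7 days after tadpole SCI in place of 1, 1 at 3 weeks after tadpole SCI in place of 0, 1 at 7 days and 2 at 3 weeks after frog SCI in place of 0, 2 in the ONC eye at 11 days in place of 1, 1 between the tadpole controls of 3 weeks and 7 days in place of 0, 1 for the tadpole against the frog response at 3 days in place of 2, 5 for the eye against the frog response at 3 days in place of 0 and 1 for the eye at 11 days against the frog at 7 days in place of 0. The last count was also 1 with median-of-ratios scaling, a pseudocount of 1 and a filter of 0.45 FPKM in every library, and that filter gave 1 at 7 days after frog SCI. With no minimal expression 0 members were called at 7 days after tadpole SCI. In the ONC eye at 11 days 0 were called with a pseudocount of 1 or the letter B as a covariate, and 3 with naive eyes as controls. The covariate sets only ONC replicate 2 apart, and no naive eye carries the letter.

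With the replicate number as a block, 0 members were called in the ONC eye at 11 days (PRMT1.S adjusted p = 0.107), 1 in contralateral against naive eyes at 3 weeks and 1 for the eye against the frog response at 3 days. Contralateral and naive eyes, and eyes and frog hindbrains, came from different animals, so that their numbers do not pair them.

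Leaving out each library in turn gave 0 to 2 members called at 7 days after tadpole SCI, 1 to 2 at 3 days and 0 to 1 at 7 days after frog SCI, and 0 to 0 in the ONC eye at 11 days. For the differences between responses it gave 1 to 2 (tadpole against frog, 3 days), 0 to 1 (tadpole against frog, 7 days), 0 to 3 (eye against frog, 3 days, with 3 called without contralateral replicate 3) and 0 to 1 (eye at 11 days against frog at 7 days). Contralateral replicate 3 is the only contralateral eye of 3 days with the letter B, which 2 ONC eyes of that time carry. Without that library the letter is found only in ONC eyes there. Between the tadpole controls of 7 and 3 days leaving out a library gave 8 to 9 in place of 10.

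Over all entries, the number called was 3517 in place of 976 at 7 days after tadpole SCI, 3554 in place of 2223 at 3 days after frog SCI and 1251 in place of 616 in the ONC eye at 11 days when the groups of a tissue shared 1 fit. Naive eyes as controls, none with the letter B, made the last 4309. With no minimal expression it was 561 at 7 days after tadpole SCI. The fold changes of entries near 1 to 5 FPKM (PRMT2, PRMT7 and the lower CARM1 entries) are the most reduced by the pseudocount. How many reads each entry rests on is unknown.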
